A study of Canis lupus familiaris with 20 samples.

Results

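The genes described here are 5 of the 24580 genes in a count table of dog vertebral cartilage, and they were chosen by their counts in these same libraries as genes on only in control animals at day 14. The 4 listed by identifier are ENSCAFG00000017890 on chromosome 4, ENSCAFG00000013751 on chromosome 7, ENSCAFG00000001178 on chromosome 13 and ENSCAFG00000008977 on chromosome 18. The remaining one, ENSCAFG00000008741, is the row on chromosome 33 whose lowest start is 785673. Because the levels in control day 14 and their contrasts with the other groups selected the genes, those values are given as a description, with no test. Taken strictly, the label held only for the gene on chromosome 7, which had 0 counts in the other 15 libraries. Those on chromosomes 4 and 13 were near 0 there, with 25 and 120 counts in all. The genes on chromosomes 18 and 33 had counts in all 20 libraries and were only higher in control day 14.

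RNA sequencing was done on epiphyseal cartilage of the T12 vertebra from dogs of a naturally occurring model of mucopolysaccharidosis VII (MPS VII), a lysosomal storage disease caused by loss of the enzyme beta-glucuronidase. Affected dogs were homozygous for the missense mutation R166H in GUSB, and the litter-matched controls were heterozygous, so every control carried 1 mutated copy as well. There were 4 groups of 5 animals: controls at postnatal day 9, MPS VII dogs at day 9, controls at day 14 and MPS VII dogs at day 14. Tissue from both ends of the vertebra was pooled per animal, and each animal gave 1 library. In such bulk samples fewer cells of a type and less RNA per cell cannot be told apart.

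The cartilage at the ends of a young vertebra is a template for bone. Its chondrocytes enlarge, vessels, osteoclasts and bone-forming cells enter it, and a secondary ossification centre replaces part of it. In MPS VII dogs this ossification is known to be delayed.

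The count table does not pair identifiers with names. Names here come from position alone: the order and lengths of genes in CanFam3.1, the build of the counts, were aligned with the order and lengths in RefSeq's annotation of the assembly UU_Cfam_GSD_1.0. They are written as, for example, PDC-position gene, and 0 identifiers were matched directly. The gene at chr4:57934459-57958154, on the plus strand with 10 exons, lies where SLC36A2 lies in RefSeq, with 5 of 6 flanking genes in the same order and a RefSeq span 4.15% longer. SLC36A2 encodes a transporter of small amino acids such as glycine and proline. The gene at chr7:19498755-19514228, on the minus strand with 5 exons, lies where PDC lies, with 4 of 6 flanking genes matched and a span 1.36% longer. PDC encodes phosducin, which binds G-protein beta-gamma subunits and is best known from photoreceptors.

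The match was weaker for the next pair. The gene at chr13:33735489-33974004, on the minus strand with 65 exons, had 2 of 6 flanking genes matched and was named from its place between more distant matched genes, where COL22A1 covered 91.6% of the interpolated place with a span 12.9% longer. COL22A1 encodes a collagen found at tissue junctions such as that between muscle and tendon. The gene at chr18:42616367-42665127, on the plus strand with 39 exons, had 1 of 6 flanking genes matched and was named in the same way, with LRP4 covering all of the place and a span 7.07% longer. LRP4 encodes a receptor of the low-density lipoprotein receptor family that binds agrin at the neuromuscular junction and the Wnt inhibitor sclerostin in bone. The gene at chr33:785673-1092293, on the plus strand with 18 exons, received no name. A further gene, ENSCAFG00000021089, lies inside its span on the same strand, so reads from the pair may be hard to separate, while no other gene overlapped the other four spans.

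Levels are given as CPM, the counts of a gene per 1000000 counts of its library after scaling. The SLC36A2-position gene had 176, 57, 44, 271 and 127 counts in control day 14 replicates 1 to 5, or 7.10, 2.74, 2.50, 12.7 and 5.49 CPM. In control day 9 it had 2, 0, 4, 0 and 0 counts, and in MPS VII day 9 it had 8, 0, 5, 2 and 4 counts. In MPS VII day 14 it had 0 counts in each of the 5 libraries. All control day 14 libraries were therefore above the other 15, and the lowest of them, at 2.50 CPM, was above the highest MPS VII day 9 library, at 0.363 CPM. The group means were 6.11 ± 4.16 CPM in control day 14, 0.168 ± 0.135 in MPS VII day 9 and 0.0492 ± 0.0771 in control day 9 (SD, n = 5 each).

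On pooled counts the control day 14 level of the SLC36A2-position gene was 119-fold that of control day 9 (95% exact binomial interval 54.6 to 327) and 37.7-fold that of MPS VII day 9 (24.0 to 63.0). Such intervals cover counting error only, not the spread between animals. Against MPS VII day 14 it was at least 209-fold higher, with a floor of 3 counts over the group in place of 0. If both mates of a read pair were counted singly, as the excess of even counts leaves possible, that bound would be at least 105-fold.

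The PDC-position gene was the one member with no count at all outside control day 14. There it had 73, 14, 17, 127 and 35 counts in replicates 1 to 5, or 2.94, 0.673, 0.964, 5.95 and 1.51 CPM, a mean of 2.41 ± 2.17 CPM (SD, n = 5). The other 15 libraries held 0 counts, which allows up to 0.0262 CPM in control day 9, 0.0262 in MPS VII day 9 and 0.0299 in MPS VII day 14 at 3 counts per group. Control day 14 was at least 94.2-fold higher than control day 9, at least 94.1-fold higher than MPS VII day 9 and at least 82.5-fold higher than MPS VII day 14. On halved counts the lowest of these bounds was 41.2-fold.

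The COL22A1-position gene reached a higher level from a similarly low start. In control day 14 it had 1070, 241, 417, 2316 and 720 counts, or 43.1, 11.6, 23.6, 109 and 31.1 CPM in replicates 1 to 5. Control day 9 held 14, 2, 6, 6 and 2 counts, MPS VII day 9 held 32, 0, 28, 10 and 0, and MPS VII day 14 held 0, 4, 8, 6 and 2. No other library reached the lowest control day 14 library, and the highest of the 15, in MPS VII day 9, stood at 1.45 CPM. The means were 43.6 ± 38.1 CPM in control day 14, 0.606 ± 0.656 in MPS VII day 9, 0.255 ± 0.173 in control day 9 and 0.210 ± 0.177 in MPS VII day 14 (SD, n = 5 each). Control day 14 was 169-fold above control day 9 (interval 118 to 250), 72.2-fold above MPS VII day 9 (57.1 to 92.8) and 222-fold above MPS VII day 14 (143 to 363).

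The LRP4-position gene was expressed in every library. It stood at 50.04, 29.1, 36.2, 61.5 and 36.1 CPM in control day 14 replicates 1 to 5. Control day 9 libraries held 10.1, 9.73, 10.5, 6.96 and 10.97 CPM, MPS VII day 9 libraries 8.08, 6.85, 8.14, 6.77 and 7.86, and MPS VII day 14 libraries 7.30, 7.42, 4.52, 6.73 and 6.01. Control day 14 did not overlap any other group, while the remaining 3 groups overlapped one another. The means were 42.6 ± 13.0, 9.64 ± 1.57, 7.54 ± 0.675 and 6.40 ± 1.19 CPM in the same order (SD, n = 5 each). Control day 14 was 4.39-fold above control day 9, 5.69-fold above MPS VII day 9 and 6.66-fold above MPS VII day 14 on pooled counts.

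The gene on chromosome 33 was also expressed throughout. Control day 14 libraries held 84.5, 49.4, 50.5, 101 and 63.2 CPM, and control day 9 libraries held 7.50, 7.56, 6.34, 5.45 and 6.40. In MPS VII dogs the libraries held 9.89, 10.02, 10.6, 11.8 and 10.1 CPM at day 9 and 12.9, 13.4, 17.4, 14.2 and 10.7 at day 14. Control day 14 was above all others, control day 9 was below all others, and the MPS VII groups overlapped each other in between. The means were 69.6 ± 22.4 CPM in control day 14, 13.7 ± 2.44 in MPS VII day 14, 10.5 ± 0.763 in MPS VII day 9 and 6.65 ± 0.885 in control day 9 (SD, n = 5 each). The level in control day 14 was 10.5-fold that of control day 9, 6.76-fold that of MPS VII day 9 and 5.20-fold that of MPS VII day 14.

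**Figure D1:**
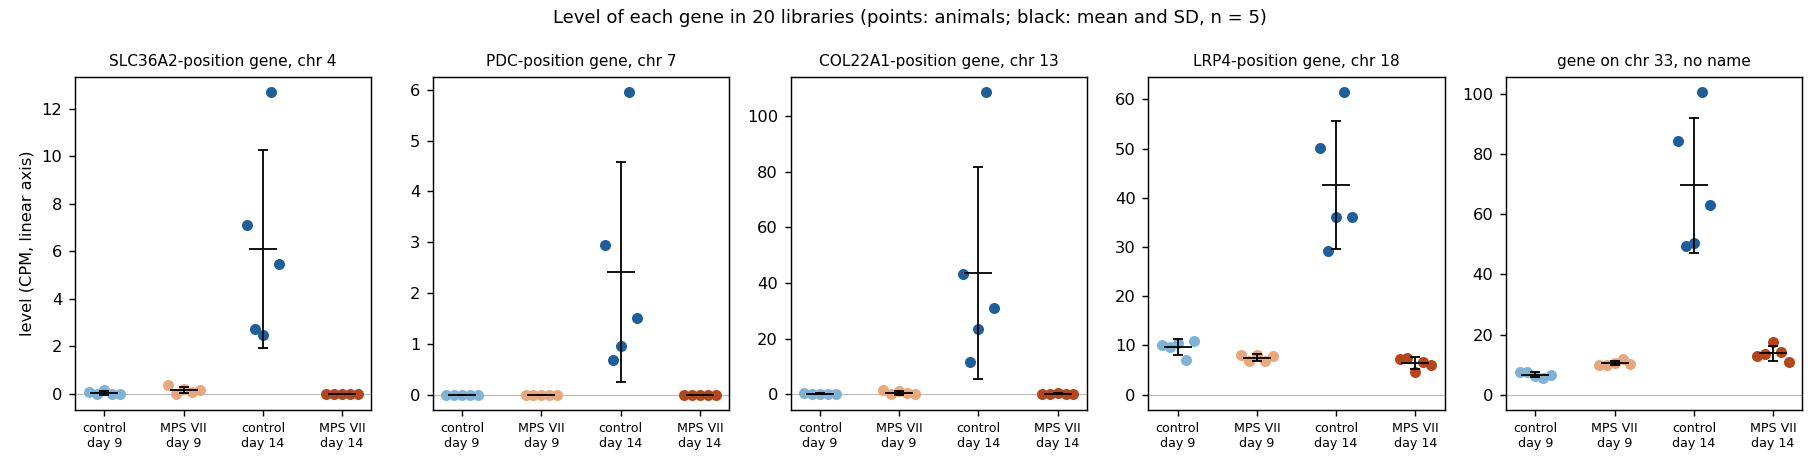
Level of each of the 5 genes (CPM, linear axis, 1 panel per gene with its own scale) in the 4 groups; points are animals and black bars are the mean and SD (n = 5). The control day 14 points lie above all others in every panel, and the LRP4-position and chromosome 33 panels show levels well above 0 in the other groups, with means of 6.40 to 9.64 and 6.65 to 13.7 CPM.

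**Figure D2:**
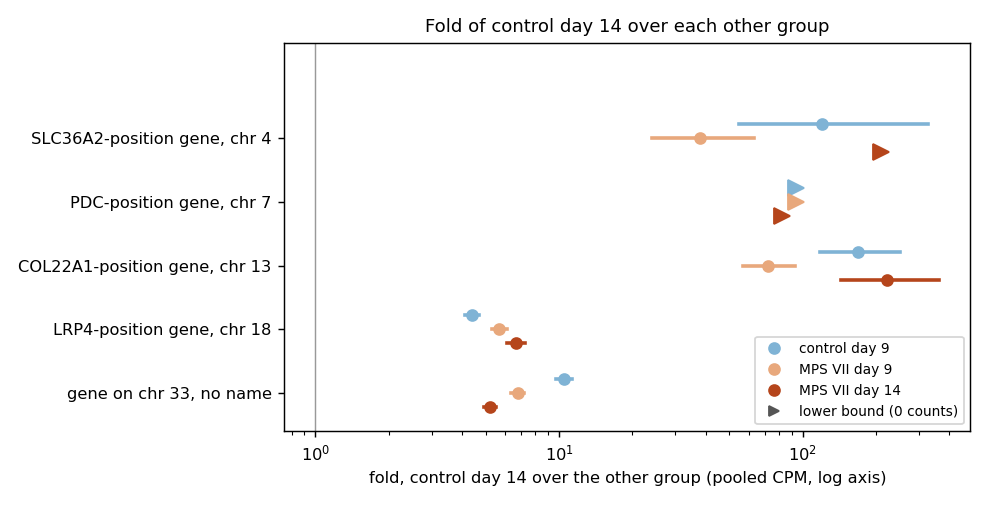
Fold of the pooled control day 14 level over each other group (log axis) for the 5 genes; circles are folds with 95% counting intervals, and triangles are lower bounds where the other group held 0 counts. Folds or bounds run from 37.7 to 222 for the SLC36A2-, PDC- and COL22A1-position genes and from 4.39 to 10.5 for the LRP4-position and chromosome 33 genes.

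Per kilobase of exon, the order of the 5 genes in control day 14 differed from that by fold. The chromosome 33 gene was highest at 11.8 CPM per kilobase, followed by the COL22A1-position gene at 7.35, the LRP4-position gene at 6.48, the SLC36A2-position gene at 4.20 and the PDC-position gene at 1.57. The summed exon lengths behind these levels were 5892, 5936, 6571, 1452 and 1539 bases.

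Within control day 14 the animals differed, and they did so in nearly the same order for all 5 genes. Replicate 4 was highest and replicate 1 second in each of them, and replicates 2, 3 and 5 made up the lower end. The highest library was 9.38 times the lowest for the COL22A1-position gene, 8.85 times for the PDC-position gene and 5.09 times for the SLC36A2-position gene. It was only 2.11 times the lowest for the LRP4-position gene and 2.04 times for the chromosome 33 gene. Replicate 4 alone supplied 48.6% of the group's counts of the COL22A1-position gene, 47.7% for the PDC-position gene and 40.1% for the SLC36A2-position gene. Without it the control day 14 means were 27.4 ± 13.2, 1.52 ± 1.01 and 4.46 ± 2.22 CPM (SD over the other 4), so each still exceeded every library of the other groups. For the LRP4-position and chromosome 33 genes the means without replicate 4 were 37.8 ± 8.77 and 61.9 ± 16.3 CPM.

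Libraries with high levels of the 5 genes also differed in cartilage and bone genes. Replicates 1 and 4 of control day 14 had the lowest COL2A1-position levels of the group, 80690 and 104360 CPM, against 164670, 238240 and 184300 CPM in replicates 2, 3 and 5. COL2A1 encodes the main collagen of cartilage. They had the highest levels at the position of ATP6V0D2, a proton pump subunit of osteoclasts, with 96.3 and 114 CPM against 46.4 to 60.0 in the rest. The SPP1-position gene, for the bone matrix protein osteopontin, stood at 6976 and 8354 CPM against 3873 to 4880. Other markers did not follow this order. The MMP9-position gene, of the osteoclast list, stood at 1657, 1516, 1707, 1785 and 1653 CPM in replicates 1 to 5. The SP7-position gene, of the osteoblast list, was at 13.0, 12.3, 14.9, 12.3 and 15.1 CPM in replicates 1 to 5. Of the chondrocyte list, the MATN1-position gene was at 233 and 119 CPM in replicates 1 and 4 and at 121 to 256 in the rest. The genes in this paragraph were singled out after their values were seen, and the part of tissue composition in the spread of the 5 genes was not tested.

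**Figure D3:**
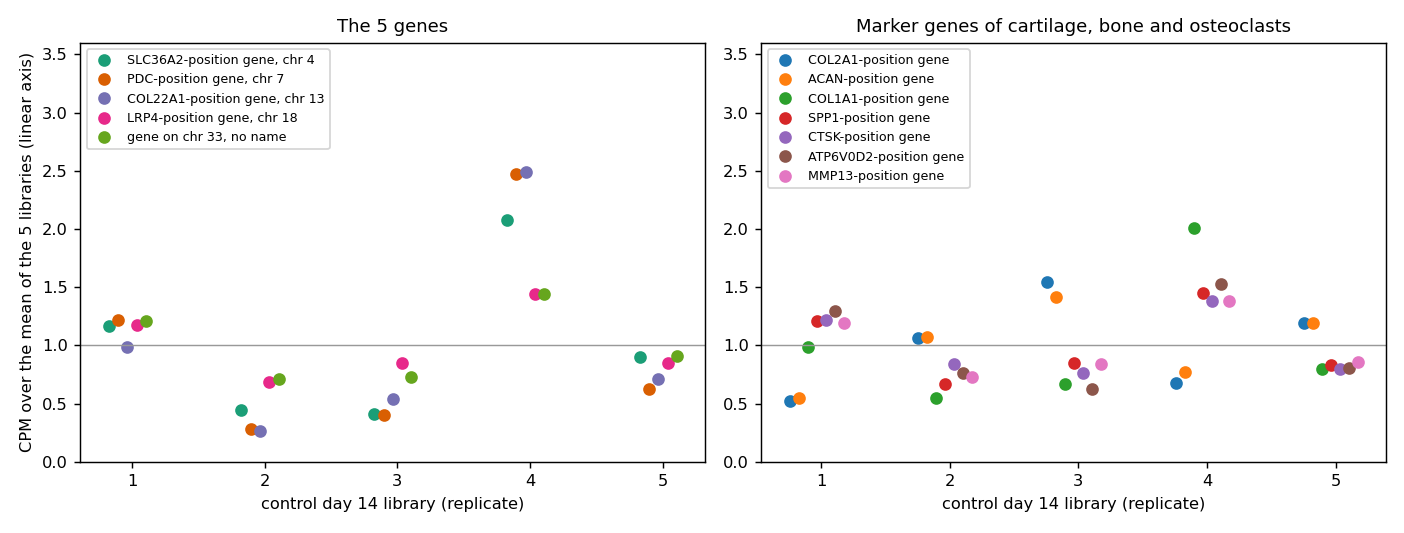
CPM in each of the 5 control day 14 libraries divided by the mean of the 5 (linear axis), for the 5 genes (left) and for 7 marker genes named by position (right). Replicates 1 and 4 are highest for the 5 genes and for the ATP6V0D2- and SPP1-position genes, and lowest for the COL2A1-position gene at 80690 and 104360 CPM.

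Across all 20 libraries the 5 genes followed one another closely, as their choice implies. Pearson's r of log2 CPM between pairs was 0.861 to 0.962 (n = 20), and the points share library depth and the contrast of control day 14 with the rest. Over the 15 libraries outside control day 14, r was -0.723 between the LRP4-position and chromosome 33 genes, 0.518 between the SLC36A2- and COL22A1-position genes, and between -0.129 and 0.313 for the other 4 pairs that could be computed (n = 15). Pairs with the PDC-position gene have no value there, since it was at 0 throughout. The LRP4-position and chromosome 33 genes thus ran in opposite directions outside the group that chose them, since of the other 3 groups control day 9 was highest for the former and lowest for the latter.

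Low levels outside control day 14 were part of the choice, so the other 3 groups are not fully independent of it. All 5 members passed the filter on low counts, but the SLC36A2-, PDC- and COL22A1-position genes passed through their control day 14 counts alone, and no test is given for them. Tests of contrasts that leave out control day 14 are given for the LRP4-position and chromosome 33 genes, from a fit over all genes. The spread in that fit was estimated over all 20 libraries, so control day 14 still enters the SE and the p-values. The chromosome 33 gene was higher in MPS VII dogs at day 9, with a log2 fold change of 0.65 ± 0.18 (SE) and an edgeR adjusted p of 0.0217. All 5 MPS VII libraries were above all 5 controls, as a description, since the share of all genes separated in this way is not given. In this contrast 8.38% of all 14550 tested genes passed the threshold of 0.05 in edgeR's quasi-likelihood fit with p-values adjusted by Benjamini and Hochberg. The chromosome 33 gene was called and the LRP4-position gene was not. For the chromosome 33 gene the day 9 difference had the opposite sign to that at day 14, when MPS VII dogs were lower. Leaving out control day 9 replicate 3 or 4 ended this call, with edgeR adjusted p of 0.0529 and 0.0591.

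The LRP4-position gene had a log2 fold change of -0.36 ± 0.18 at day 9 (MPS VII over control, edgeR adjusted p = 0.241). With age in MPS VII dogs, day 14 over day 9, its log2 fold change was -0.23 ± 0.18 (edgeR adjusted p = 0.358), and that of the chromosome 33 gene was 0.39 ± 0.17 (edgeR adjusted p = 0.103). In controls the fitted log2 changes with age were 2.14 ± 0.18 and 3.38 ± 0.18 for the same pair, as a description. Below control day 14, the difference of MPS VII day 9 over control day 9 for the chromosome 33 gene was thus the one tested difference past the threshold. Control day 9 and MPS VII day 14 differ in both age and genotype and were not compared.

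For the genes near 0 the remaining counts are few and are given without a test. The SLC36A2-position gene had 6 counts in control day 9, 19 in MPS VII day 9 and 0 in MPS VII day 14. The COL22A1-position gene had 30, 70 and 20 counts in these groups, and the MPS VII day 9 counts came from 3 of the 5 libraries. The groups overlapped for both genes, since MPS VII day 9 held libraries with 0 counts of each. With 0 counts in all 3 groups, the PDC-position gene gave no comparison.

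The members were chosen as on only in control day 14, so high ranks follow from that choice and are a description. All genes with a mean of at least 1 CPM in control day 14 were ranked by its fold over the highest other group. The median of these 12705 genes was 0.849-fold. The PDC-position gene ranked 1, with no fold since the other groups were at 0, the COL22A1-position gene ranked 2 at 72.0-fold, and the SLC36A2-position gene ranked 4 at 36.4-fold. The chromosome 33 gene ranked 58 at 5.07-fold and the LRP4-position gene ranked 84 at 4.41-fold.

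Only 18 of the 12705 genes, or 0.142%, had every other group below the control day 14 mean by at least 10-fold and all 5 control day 14 libraries above the other 15. They included the SLC36A2-, PDC- and COL22A1-position genes, and only the PDC-position gene had 0 counts in the other 15 libraries. Just inside the limit was ENSCAFG00000001856 on chromosome 14, at 10.1-fold over its highest other group. Among the 15 further genes, the CDH15-position gene, for a cadherin known from muscle cells, came closest with 12.6 CPM in control day 14 and 0.193 to 0.245 CPM elsewhere. The WIF1-position gene, for a secreted Wnt inhibitor, stood at 268 CPM against 5.74 to 11.2. The CDH2-position gene, for N-cadherin, stood at 37.3 CPM against 2.54 to 3.43, and the TNFRSF19-position gene at 33.9 against 1.30 to 3.097. By far the most abundant was ENSCAFG00000030721, chr12:71801379-71809983, with 14921 CPM against 606 to 1219 and no name by position. A pair of unnamed genes on chromosome 32, at chr32:11189932-11200350 and chr32:11051535-11052842, stood at 3055 and 159 CPM, against 95.8 to 297 and 3.82 to 15.5 elsewhere. Apart from the members, these genes met the rule after their values were seen, and nothing was tested on them.

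**Figure D4:**
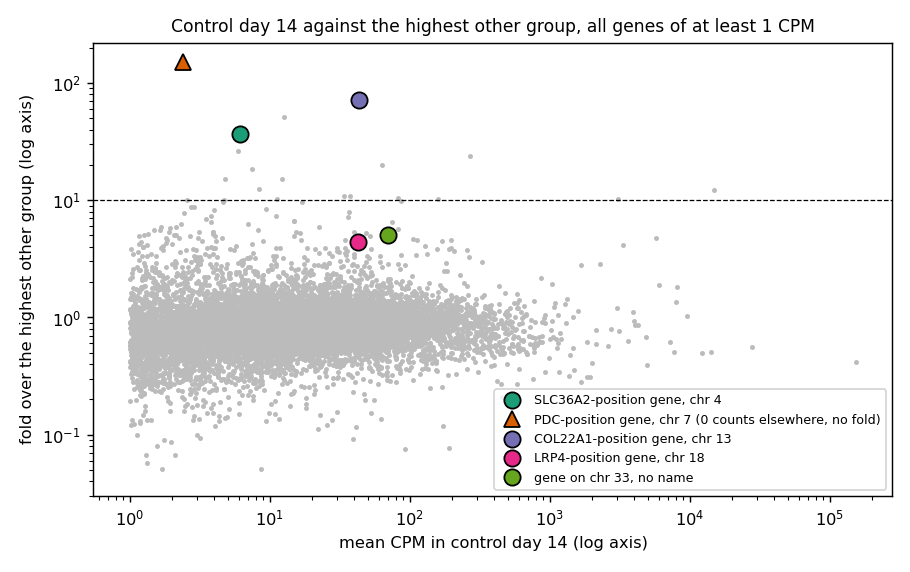
Mean level in control day 14 (CPM, log axis) against its fold over the highest other group (log axis) for genes with at least 1 CPM there; grey points are single genes, coloured symbols the 5 genes, and the dashed line marks 10-fold. The PDC-position gene has no fold and its triangle is set above the others, the COL22A1- and SLC36A2-position genes lie at 72.0- and 36.4-fold, and the LRP4-position and chromosome 33 genes lie below the line.

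Genes most like each member were taken as the 3 with the highest Pearson r of log2 CPM over the 20 libraries. Other members were among them: the PDC- and COL22A1-position genes for the SLC36A2-position gene (r = 0.953 and 0.949), and the LRP4-position gene for the PDC-position gene (r = 0.962). The CDH2-position gene was most like the PDC-position gene (r = 0.969) and was also among the 3 for the LRP4-position gene (r = 0.953). For the COL22A1-position gene the CDH15-position gene came first (r = 0.959), and the LIFR-position gene, for a cytokine receptor subunit, was also among the 3 (r = 0.951). The chromosome 33 gene was most like the NRP2-position gene, for a receptor of semaphorins and of vascular growth factors (r = 0.974), whose means were 43.0, 52.6, 185 and 74.1 CPM in control day 9, MPS VII day 9, control day 14 and MPS VII day 14.

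The likeness was measured with control day 14 included, and no r without that group is given for these genes. It is not specific to single genes. Between 26 and 86 of 14549 genes had r above 0.9 with a given member, and with Spearman's rho in place of r the 3 most like genes shared 0 members of the list for each of the 5. These correlations are descriptions over libraries that share depth and group.

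Chromosomal neighbours were not used in the choice, so the nearest 3 tested genes on each side of each member were tested, 29 in all. At day 9, genotype was past the threshold for 1 of 29 (3.45%), against a background of 8.38%. At day 14 it was past it for 8 of 29 (27.6%), 4 higher and 4 lower in MPS VII dogs, against a background of 22.0%. Age in controls was past it for 11 of 29 (37.9%), 6 higher and 5 lower, against 42.5%. In MPS VII dogs age was past it for 6 of 29 (20.7%), 2 higher and 4 lower, against 22.7%. With 3 genes on each side these shares lay near the background for age in both genotypes and for the day 14 genotype contrast. Of the 10 nearest tested genes, up to 977 kilobases from their member, 5 were called for genotype at day 14. These went both ways: the PTGS2-position gene and the nearest on each side on chromosome 18 were lower in MPS VII dogs. The GM2A-position gene and ENSCAFG00000008999 were higher. The median log2 change with age in controls was 0.05 for the neighbours and -0.06 for all genes.

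The neighbours on chromosome 7 were the ones that rose most with the PDC-position gene. The PTGS2-position gene, ENSCAFG00000013762 at chr7:19668011-19674918, for the inducible cyclooxygenase of prostaglandin synthesis, stood at 3.97 ± 1.99 CPM in control day 14, 0.484 ± 0.339 in MPS VII day 14, 0.153 ± 0.082 in control day 9 and 0.141 ± 0.050 in MPS VII day 9 (SD, n = 5 each). It rose with age in controls by 4.62 ± 0.52 on the log2 scale (edgeR adjusted p = 7.1e-07) and was lower in MPS VII dogs at day 14, at -3.03 ± 0.46 (edgeR adjusted p = 6.05e-05). Its rise with age in MPS VII dogs, 1.74 ± 0.56 (edgeR adjusted p = 0.0286), was lost in 6 of 15 alternatives. That rise, from 0.141 to 0.484 CPM, rests on few counts, as do the levels in control day 9. It may have passed the filter on low counts through control day 14 alone. Next to it the PLA2G4A-position gene, ENSCAFG00000013778, for the phospholipase that releases arachidonic acid, rose with age in controls from 3.51 ± 0.377 to 18.8 ± 7.37 CPM (log2 change 2.42 ± 0.21, edgeR adjusted p = 3e-08). In MPS VII dogs it was higher than in controls at day 9 (1.00 ± 0.21, edgeR adjusted p = 0.00350) and lower at day 14 (-0.85 ± 0.20, edgeR adjusted p = 0.00360).

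On the other side of the PDC-position gene, the ODR4-position gene rose with age in both genotypes. Its log2 changes were 0.54 ± 0.15 in controls (edgeR adjusted p = 0.00609) and 0.63 ± 0.15 in MPS VII dogs (edgeR adjusted p = 0.00484). The PRG4-position gene, for the lubricin of joint surfaces, rose in controls by 2.22 ± 0.83 (edgeR adjusted p = 0.0382), a call lost in 7 of 15 alternatives. The gap between the PDC- and PTGS2-position genes was 154 kilobases, and that to the ODR4-position gene was 14.2 kilobases.

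Around the other members the called neighbours moved less and in both directions. Beside the SLC36A2-position gene, the GM2A-position gene, for a lysosomal activator protein of ganglioside breakdown, was higher in MPS VII dogs at day 14 (72.5 ± 12.6 against 44.0 ± 7.73 CPM, log2 change 0.72 ± 0.15, edgeR adjusted p = 0.00134). The SPARC-position gene, for an abundant matrix protein of cartilage and bone, fell with age in controls from 26666 ± 3333 to 14172 ± 2402 CPM, a log2 change of -0.91 ± 0.18 (edgeR adjusted p = 0.000380). An unnamed gene between them, ENSCAFG00000024037, rose by 0.80 ± 0.20 (edgeR adjusted p = 0.00288). Of the neighbours of the COL22A1-position gene, the gene at chr13:32069992-32070470 fell with age in controls at a log2 change of -1.37 and the gene at chr13:32756937-32758658 at -0.35 (edgeR adjusted p = 0.0199 and 0.0176), while 0 of the 6 were past the threshold for genotype at day 14.

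Next to the LRP4-position gene, the gene at chr18:42394453-42398841 fell with age in controls at a log2 change of -1.11 (edgeR adjusted p = 4.08e-06) and was higher in MPS VII dogs at day 14 by 0.71 ± 0.14 (edgeR adjusted p = 0.00105). Its nearer neighbours at chr18:42412160-42604994 and chr18:42711472-42779880 were lower in MPS VII dogs at day 14, at -0.47 ± 0.14 and -0.45 ± 0.09 (edgeR adjusted p = 0.0184 and 0.000827). On chromosome 33 the nearest tested gene on the higher side, ENSCAFG00000008999, went against the member. It stood at 28.2 ± 5.02 CPM in control day 14 and 63.5 ± 6.63 in MPS VII day 14 (log2 change 1.17 ± 0.16, edgeR adjusted p = 1.21e-05), and fell with age in controls at a log2 change of -0.81 (edgeR adjusted p = 0.000292).

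**Figure D5:**
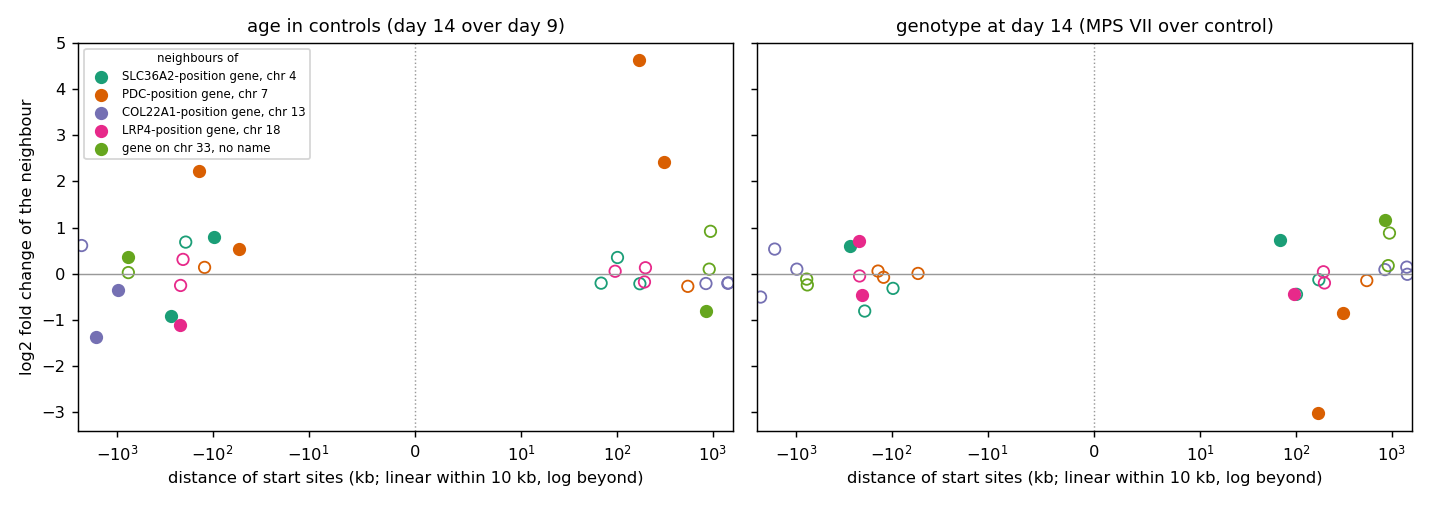
Log2 fold change of the 29 neighbours against the distance of their start site from that of the member (kilobases, linear within 10 and log beyond), for age in controls (left) and genotype at day 14 (right); filled points passed the edgeR threshold. The PTGS2-position point stands out at 4.62 and -3.03, and the other neighbours scatter on both sides of 0.

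The age change itself differed between genotypes for 3 of the 29 neighbours by edgeR's interaction test, against 3.26% of all tested genes. They were the PTGS2- and PLA2G4A-position genes and ENSCAFG00000008999. For the PTGS2-position gene this call had an edgeR adjusted p of 0.0480 and was lost in 18 of 24 alternatives, with values up to 0.109.

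Some markers of other tissue components moved with control day 14, the group in which the 5 genes are high. Named by position, 4 of 10 osteoclast markers could be used, and their summed level was 2439 to 3325 CPM in control day 14, 476 to 798 in MPS VII day 14, 401 to 1470 in control day 9 and 303 to 517 in MPS VII day 9. Of the 3 tested, all 3 rose with age in controls and all 3 were lower in MPS VII dogs at day 14, where 42.5% and 22.0% of all genes were called in either direction. For example, the MMP9-position gene, for a matrix protease of osteoclasts and vessels, stood at 1663 ± 98.1 CPM in control day 14 and 113 ± 80.7 in MPS VII day 14 (log2 change -3.88, edgeR adjusted p = 2.96e-05). The MMP13-position gene, for a collagenase of hypertrophic chondrocytes, stood at 3364 ± 915 against 353 ± 142 CPM (log2 change -3.25, edgeR adjusted p = 2.17e-08). It was the only 1 of 6 hypertrophic chondrocyte markers named by position, so the rest of that list could not be seen.

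Of the 5 osteoblast and osteocyte markers named by position, 2 rose with age in controls and 2 were lower in MPS VII dogs at day 14, the SPP1- and PHEX-position genes in each case. Against the 42.5% and 22.0% of all genes called, 2 of 5 is near the background for age in controls. The chondrocyte list went the other way. With 8 of 9 markers named, 7 fell with age in controls (42.5% of all genes were called, 3011 of 14550 as lower). That count was 6 with RLE scaling, with no filter on low counts, and with single libraries left out. The summed level was 132720 to 305810 CPM in control day 14 against 344500 to 576640 in control day 9. It was 223880 to 373350 CPM in MPS VII day 14, when 2 of the 8, the MATN1- and COMP-position genes, were higher in MPS VII dogs, a share near the 22.0% of all genes. Chondrocyte markers were abundant in every library, as the labelled tissue has it.

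Other lists were small. The summed level of 2 macrophage markers was 87.04 to 116 CPM in control day 14 and 16.7 to 39.1 in all other groups, and that of 3 erythroid markers was 29.4 to 39.3 against 6.32 to 32.0. Most of the macrophage sum was the CSF1R-position gene, at 86.3 ± 11.6 CPM in control day 14 and 22.1 ± 5.75 in MPS VII day 14. Its partner, the CD163-position gene, did not set control day 14 apart, at 9.32 ± 0.454 against 10.6 ± 3.54 CPM in MPS VII day 14. Endothelial markers (2 named) lay at 104 to 126 CPM in control day 14, 87.8 to 133 in MPS VII day 14, 65.5 to 95.1 in control day 9 and 72.3 to 98.6 in MPS VII day 9. Of these the TEK-position gene, for a receptor of vessel cells, rose with age in controls by 0.72 on the log2 scale (edgeR adjusted p = 1.03e-05) and was lower in MPS VII dogs at day 14, at -0.45 (edgeR adjusted p = 0.00244). By contrast, the VWF-position gene was past the threshold in neither comparison. Its log2 changes were 0.40 with age in controls and 0.36 for MPS VII over control at day 14 (edgeR adjusted p = 0.0791 and 0.168). For 2 skeletal muscle markers the sum was 2.98 to 23.5 CPM in control day 14 and 7.998 to 54.6 in the other groups, and the tendon marker TNMD, by position, was at 56.8 to 109 against 19.7 to 141. Neutrophil markers (2 named) lay at 4.88 to 10.97 CPM in control day 14 and T cell markers (2 named) at 0.242 to 0.907, both within the range of the other groups. None of the B cell, adipocyte or nerve and glia markers was named. What part the change in tissue composition has in the levels of the 5 genes was not tested.

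Total counts were 15772761 to 28028365 per library, with control day 14 at 16975358 to 20766128 and control day 9 at 22703756 to 28028365. Age and depth went together and cannot be fully told apart in controls. Libraries of a group were separate animals, and none of the 40 pairs within groups agreed within sampling noise.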

How the data were processed

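Polyadenylated RNA was sequenced with a stranded kit in paired reads, and the labels' protocols give CanFam3.1 and Ensembl 77 for the mapping. Tools listed in the submitters' processing notes, without roles, are STAR 2.4.0j, HTSeq, edgeR, bcl2fastq and CASAVA 1.8.2. Raw counts by gene are in the deposited table beside exon positions, per the file headers. The strand setting of the counting is not given in the sources used here, nor is the rule for reads with several matches. Of counts under 200, 65.2% to 76.4% per library were even, so fits and bounds were repeated on halved counts.

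Tests used edgeR 4.0.16 (R 4.3.3): filterByExpr (14550 genes kept, 10030 dropped), TMM scaling, 1 mean per group over 20 libraries, robust glmQLFit, glmQLFTest, and p-values adjusted after Benjamini and Hochberg over those genes (threshold 0.05). The code was checked on simulated counts. Tests planned for the 3 members near 0 outside control day 14 were left out, since these passed the filter through that group alone. Within-group pairs of libraries had chi-square values of 16.7 to 607 per gene. Replicate numbers follow accession order and pair no animals.

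The members and lists were chosen with earlier results of these data known. Genes named are the members, the 3 genes most like each by Pearson's r, and the called genes among the nearest 3 on each side; others were singled out after their values were seen. The gene on chromosome 33 was taken by its stated start, not as the first gene of that chromosome. Names by position were accepted for 6049 of 18160 genes with several exons, 3395 by at least 4 of 6 flanking genes and the rest by covering at least 50% of the interpolated place, each with a span within 15%. The second way was added after the first left 2 listed genes unnamed. Marker lists were meant for symbols paired with identifiers and were used through these names instead. Alternatives were RLE scaling, no filter, halved counts, only the 2 groups compared, DESeq2 1.42.0, other numbers of neighbours, other limits for the pattern, and each library left out. Sequences were not used here.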

Additional observations from a re-analysis of the deposited data

Results flagged for a closer look

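Among the neighbours of the 5 genes, the change with age differed between genotypes for 3 by edgeR's interaction test. For ENSCAFG00000013762 on chromosome 7, the PTGS2-position gene, the log2 change with age in MPS VII dogs minus that in controls was -2.88 ± 0.80 (SE, edgeR adjusted p = 0.0480). For ENSCAFG00000013778, the PLA2G4A-position gene, it was -1.86 ± 0.29 (edgeR adjusted p = 0.00170). ENSCAFG00000008999 on chromosome 33 went the other way, at 1.11 ± 0.22 (edgeR adjusted p = 0.00845). The call held in all 24 alternatives for the second and the third of these genes, and in 6 of 24 for the first. No library of the 5 genes stood apart from its group by Dixon's test at 95%. With 5 libraries per group this test has little power and does not exclude outlying libraries. Replicate 4 supplied 48.6% of the control day 14 counts of the COL22A1-position gene.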

How the results depend on the processing

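Neighbours called for genotype at day 9 numbered 1 in the 15 alternatives run with the nearest 3 on each side. With only the nearest gene on each side, 5 of 10 were called for age in controls and 5 for the day 14 genotype contrast, and with the nearest 5 on each side 21 and 14 of 47, where 42.5% and 22.0% of all genes were called. For age in MPS VII dogs the count fell to 3 in a fit of those 2 groups alone, and ran from 3 (without MPS VII day 14 replicate 4) to 7 with single libraries left out. Leaving out single libraries gave 9 to 11 for age in controls and 6 to 8 for the day 14 genotype contrast. The 18 genes with the control day 14 pattern became 6 when other groups had to be at most a twentieth of it, and 12 (without control day 14 replicate 4) to 24 (without control day 14 replicate 2) with single libraries left out; at least 2 CPM, or no demand on single libraries, left 18. No fold change of the 5 genes or of a called neighbour changed sign in these alternatives. The fitted age change in controls of the SLC36A2-position gene moved from 6.73 to 7.82 on the log2 scale without control day 9 replicate 3, on 6 counts in that group. No paired analysis was possible because replicate numbers follow accession order and the labels tie no animals together across groups.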
